A study of Mus musculus with 14 samples.

Results

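Ovaries of 28-week-old mice treated with AMSC-CM were compared with ovaries of saline-treated mice of the same age. AMSC-CM is medium conditioned by human mesenchymal stem cells of the amniotic membrane. The comparison used the 7 ovary libraries of the 14 libraries of the series, chosen by their labels, and the other 7 were made from uteruses. The OC group ("old control", OC1 to OC3) was given normal saline and the OT group ("old treatment", OT1 to OT4) was given AMSC-CM, which holds what the cells secrete but not the cells. Female C57BL/6J mice received 6 tail-vein injections 4 days apart at 1 µL per g of body weight. Before the injections both groups had also received pregnant mare serum gonadotropin (10 IU) and, 48 h later, human chorionic gonadotropin (10 IU), which act like follicle-stimulating and luteinizing hormone, so the controls carried the same hormonal priming. Each library was made from total ovary RNA after removal of rRNA, the controls were given saline and not unconditioned medium, and no young mice are among the libraries used here. Values are FPKM, the fragments per kilobase of a transcript scaled to the mapped fragments of its library, and 14415 of the 21853 genes had a mean of at least 0.5 FPKM over the 7 libraries and were tested.

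The ovary is built of follicles, in which an oocyte sits among granulosa cells inside a layer of androgen-making theca cells, and of corpora lutea, the progesterone-making bodies that form from follicles after ovulation. These lie in a fibrous stroma with vessels and immune cells, and macrophages that clear dying follicles and regressing corpora lutea fuse into multinucleated cells as the mouse ovary ages. Adipocytes are not part of the ovary itself, but the mouse ovary lies against a pad of gonadal fat. The comparison was therefore described by lists of genes known to mark each cell type, 308 genes in 21 lists, of which 281 were tested and 27 were below 0.5 FPKM.

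A gene was called changed when its log2 fold change between OT and OC was at least 1 in size and its unadjusted limma p was no more than 0.05 on log2(FPKM + 0.1), and "rose" and "fell" are used only for called genes. In the ovary 53 genes rose (0.368% of the tested genes) and 12 fell (0.0832%). Some of them averaged at least 0.5 FPKM only through the group in which they were high, so their direction is not independent of that filter. No gene passed a Benjamini-Hochberg adjusted p under 0.05 by limma, although 650 had an unadjusted p under 0.05, and every called gene had an adjusted p of 0.997. A gene was counted as held within 2-fold when its whole 95% limma interval lay between a log2 fold change of -1 and 1, and 12671 genes (87.9%) met this. Square brackets after a log2 fold change give this interval. All 4 OT libraries lay above all 3 OC libraries for 401 genes (2.78%) and below them for 451 (3.13%). These shares are the background for the counts in each cell type.

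The 7 libraries had total values between 374816 and 397644 FPKM and median values between 3.90 and 4.14 FPKM, with 16501 to 16690 genes above 0. The number of fragments behind them is unknown. Steps between low values gave relative depths of 0.84 for OT3 to 1.19 for OT2 with OC1 set to 1. The labelled tissue carried its defining markers: Zp3, Gdf9, Amh, Inha, Lhcgr and Star were above 0 in every library.

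**Figure D1:**
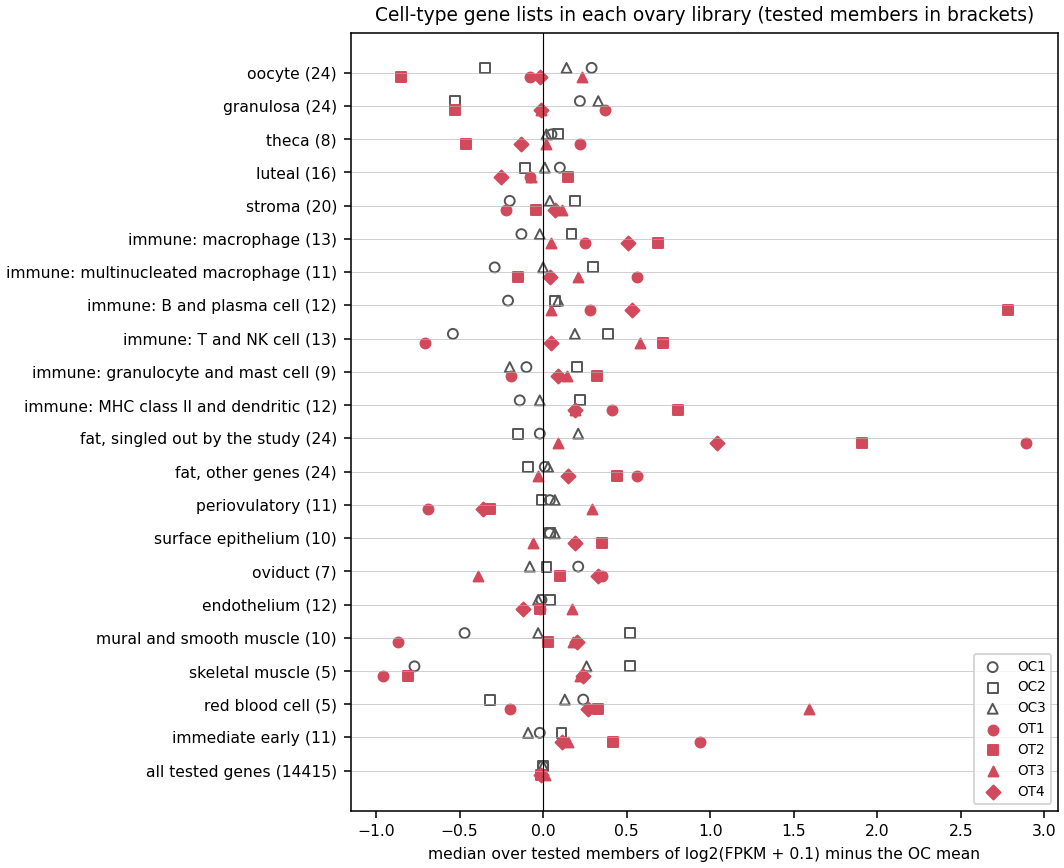
Each point is 1 library (open grey, OC; filled red, OT), and its place on the x axis is the median over a list's tested members of log2(FPKM + 0.1) minus the mean of the OC libraries. The OT libraries spread to the right for the fat genes singled out by the study (0.09 to 2.89) and OT2 alone for B and plasma cells (2.78), while luteal, stromal and endothelial lists stay between -0.25 and 0.19 in all 7.

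Adipocyte genes held most of the called genes among the cell-type lists. They were split into 24 genes that the study had itself singled out as changed in these samples, and 25 other genes of adipocyte identity, fat synthesis and fat breakdown. Of the first list 15 of 24 rose and none fell, against 0.368% of all tested genes, and the median log2 fold change was 1.51 against -0.01 for all tested genes. Since that list was chosen on these same libraries, its direction is not independent evidence. The same limit holds for members of other lists that the study reported as changed in these samples. They were Jchain, Mzb1, Cd79b and Pou2af1 (B and plasma cells), Acp5 (multinucleated macrophages) and Cd209g (MHC class II and dendritic cells). Myl1 (skeletal muscle) and Fos and Fosb (immediate early) were reported as well. Of the second list none of the 24 tested genes was called, 7 had an unadjusted p below the threshold, and the median log2 fold change was 0.36. Angptl4, among these 7, was lower in OT. The second list summed to 1230 to 1420 FPKM in the OC libraries, against 312 to 472 FPKM for the first. How much of that came from cells other than adipocytes was not tested, so its median may not describe adipocytes alone. In whole tissue more adipocytes and more RNA per adipocyte cannot be told apart. How fat was trimmed from the ovaries is not given in the sources used here, so adipocytes within the ovary and those of attached gonadal fat cannot be told apart either.

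Lep encodes leptin, the hormone by which fat cells signal energy stores (GRCm38, chr6:29060220-29073877, plus strand). Its values were 1.97, 1.75 and 1.88 FPKM in OC1 to OC3 and 14.4, 7.66, 3.68 and 7.71 FPKM in OT1 to OT4. The groups did not overlap, OT3 stood nearest to the controls, and the log2 fold change was 1.95 ± 0.38 (SE) with an exact two-sided permutation p = 0.0571, the smallest p that the 35 ways of splitting 3 and 4 libraries allow. Lep and Rbp4, the retinol carrier of the blood, were called under all 16 alternative settings. Rbp4 had 3.2, 2.88 and 1.76 FPKM in OC1 to OC3 and 15.2, 6.92, 3.64 and 7.93 FPKM in OT1 to OT4, and OT3 again stood nearest to the controls.

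The 250 bases before the start of Lep are shown because it was 1 of the 2 members called under every alternative, with the C/EBP palindrome TTGCGCAA in capitals. C/EBP factors drive adipocyte differentiation, and their gene Cebpa is a member of the second fat list. The sequence is from RefSeq (GRCm38.p6, chr6:29059971-29060220, plus strand), 5′ to 3′.
Lep: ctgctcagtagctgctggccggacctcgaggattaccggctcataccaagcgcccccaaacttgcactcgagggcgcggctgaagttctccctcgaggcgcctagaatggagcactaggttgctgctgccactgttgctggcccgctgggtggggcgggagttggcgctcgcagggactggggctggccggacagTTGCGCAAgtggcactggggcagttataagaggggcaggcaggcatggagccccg
The palindrome starts 55 bases before the RefSeq start site. It reads the same on both strands and was present in 54 of 32851 RefSeq promoters searched over the same 250 bases (0.164%), and Lep was the only match among the 34 fat-list genes with a promoter entry. The share is over promoter entries, while the fat-list count is over genes with a match in any entry, so they are not like measures. A match of letters does not show that a factor binds there.

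Adipoq encodes adiponectin, an insulin-sensitizing adipocyte hormone (GRCm38, chr16:23146536-23158028, plus strand). It had 21.1, 17.9 and 25.6 FPKM in OC1 to OC3 and 160.0, 130.0, 22.5 and 49.2 FPKM in OT1 to OT4, so that OT1 and OT2 stood far above the controls, OT4 above them and OT3 inside their range. Its log2 fold change was 1.70 ± 0.60 (SE), with an exact two-sided permutation p = 0.114. Cidec, which fuses lipid droplets, had 11.5, 10.2 and 14.2 FPKM in OC1 to OC3 and 91.9, 73.3, 9.48 and 30.8 FPKM in OT1 to OT4, with OT3 below every control, and a log2 fold change of 1.65 ± 0.68 (SE). Plin1, the coat protein of adipocyte lipid droplets, had 14.9, 9.41 and 17.5 FPKM in OC1 to OC3 and 71.9, 47.8, 12.4 and 19 FPKM in OT1 to OT4 and was not called (log2 fold change 1.15).

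Fabp4, the fatty acid carrier of adipocytes, had 55, 48.4 and 89.1 FPKM in OC1 to OC3 and 460.5, 269, 69.2 and 152 FPKM in OT1 to OT4. Cd36, the fatty acid transporter, had 19.4, 23.1 and 28.1 FPKM in OC1 to OC3 and 120.3, 68.8, 34.4 and 39 FPKM in OT1 to OT4, and Lpl, the lipase that frees fatty acids from lipoproteins, had 20.1, 17.3 and 19.9 FPKM in OC1 to OC3 and 81.4, 48.2, 22.7 and 44 FPKM in OT1 to OT4. The groups did not overlap for Cd36 and Lpl, Lpl had the narrowest interval of the list at 1.22 [0.43 to 2.01], and for Fabp4 OT3 lay inside the OC range. Adrb3, the beta3-adrenergic receptor of fat cells, had 2.11, 1.98 and 2.14 FPKM in OC1 to OC3 and 26.1, 16.3, 2.31 and 5.95 FPKM in OT1 to OT4 and a log2 fold change of 2.03 ± 0.70 (SE), with OT3 just above the controls. Slc7a10, an amino acid transporter, had the largest log2 fold change of the list, 2.05 ± 0.62 (SE). Car3, Aqp7, Sncg, Acvr1c, Trarg1 and Dgat2 also rose, by log2 fold changes of 1.80, 1.76, 1.65, 1.24, 1.21 and 1.07. Aqp7 had an OC mean of 0.352 FPKM and passed the filter only through the OT libraries.

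The mice of the OT group did not share the change equally. All 24 singled-out genes exceeded every control in OT1, OT2 and OT4, but only 8 did so in OT3, where 10 lay inside the OC range and 6 below it. The highest value of every one of the 24 was in OT1. The summed level of the list was 312 to 472 FPKM in the OC libraries, and 3000, 2116, 389 and 792 FPKM in OT1 to OT4. Without OT3 all 24 were called higher. The count of 15 was 8 without OC1, 10 without OC2, 12 without OC3, 9 without OT1, 9 without OT2 and 15 without OT4. With OC2 and OT2 both left out 3 were called, and with OT1 and OT2 both left out only Lep and Rbp4 were called of 23 tested, with a median log2 fold change of 0.60. No member of this list had an interval within 2-fold.

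Among the other fat genes Lipe, the hormone-sensitive lipase, had 18.3, 21.2 and 21.6 FPKM in OC1 to OC3 and 50.0, 41.3, 23 and 22.4 FPKM in OT1 to OT4, with no overlap and a log2 fold change of 0.66 [0.03 to 1.29]. Plin4, another droplet coat protein, had 53.6, 54.9 and 53.6 FPKM in OC1 to OC3 and 87, 90.0, 54.4 and 54.5 FPKM in OT1 to OT4, where OT3 and OT4 matched the controls. Pparg, the master regulator of adipocyte differentiation, had 15.7, 8.74 and 15.7 FPKM in OC1 to OC3 and 17.3, 12, 9.6 and 13.5 FPKM in OT1 to OT4 and a log2 fold change of -0.01 [-0.58 to 0.56]. Cidea, a droplet protein of thermogenic fat, ranged from 1.22 to 2.86 FPKM with overlapping groups, and Ucp1, the uncoupling protein of brown fat, was listed at 0 in every library. Cebpa had 16.3, 14.7 and 19.3 FPKM in OC1 to OC3 and 39.5, 28.1, 21.1 and 20.5 FPKM in OT1 to OT4, and every OT library was above every OC library (log2 fold change 0.66, not called). Acly and Gpam, enzymes of fatty acid and glycerolipid synthesis, had log2 fold changes of -0.07 [-0.26 to 0.12] and 0.04 [-0.21 to 0.28]. In all 16 of the 24 genes had an interval within 2-fold, and the log2 fold changes of the list ran from -0.61 to 0.86. The list's median of 0.36 was 0.17 without OT1 and 0.03 without OT1 and OT2.

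Angptl4, an inhibitor of lipoprotein lipase, was the only member of this list with every OT library below every OC library (GRCm38, chr17:33773750-33781830, minus strand). It had 48.9, 43.9 and 47.2 FPKM in OC1 to OC3 and 31.6, 31.2, 27.4 and 32.2 FPKM in OT1 to OT4. The log2 fold change was -0.61 [-0.78 to -0.43], the narrowest interval of the list, which is a difference under 2-fold and so not a call. Its adjusted p of 0.477 was the smallest of all tested genes by limma.

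**Figure D2:**
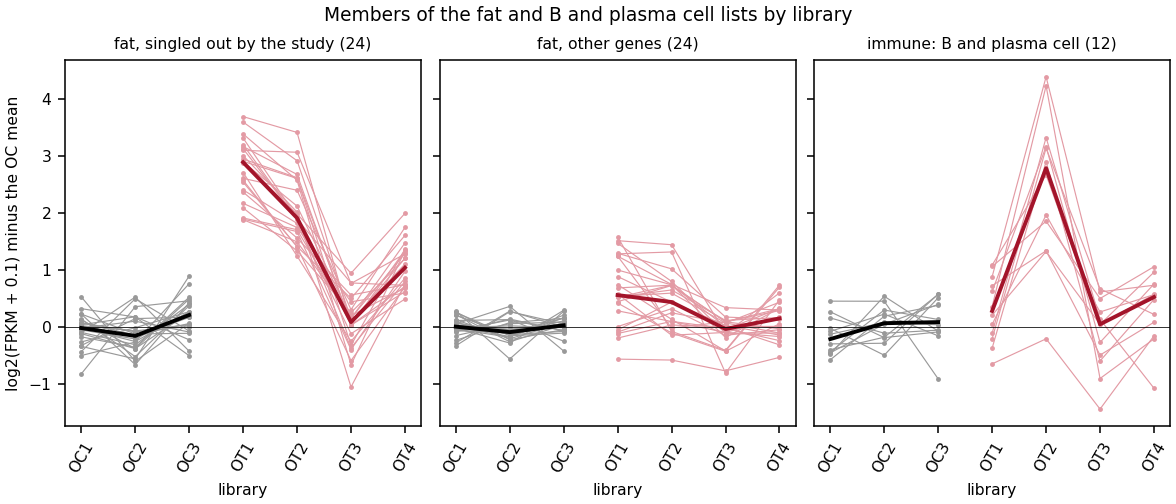
Thin lines join the values of 1 gene over the libraries, on log2(FPKM + 0.1) minus the OC mean, and thick lines the median of the tested members in each library (grey and black, OC; red, OT). The singled-out fat genes have medians of 2.89, 1.91, 0.09 and 1.04 in OT1 to OT4, the other fat genes 0.56, 0.44, -0.03 and 0.15, and the B and plasma cell genes a peak of 2.78 in OT2.

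Macrophage genes had small differences, mostly towards higher values in OT. The list of 13 had a median log2 fold change of 0.43, none was called, and 11 of the 13 had a fold change above 0. All OT libraries were above all OC libraries for 4 of the 13 (Csf1r, Cd68, C1qc and Lyz2), against 2.78% of all tested genes. Csf1r, the receptor for the main macrophage growth factor, had 11.1, 15.5 and 16 FPKM in OC1 to OC3 and 21.6, 27.4, 17.5 and 18.8 FPKM in OT1 to OT4 (log2 fold change 0.58 [0.17 to 0.99], exact two-sided permutation p = 0.0571). Cd68, a lysosomal protein of macrophages, had 13.8, 16 and 15.2 FPKM in OC1 to OC3 and 25.1, 18.3, 17.1 and 20.9 FPKM in OT1 to OT4 (log2 fold change 0.43 [0.13 to 0.73]). Lyz2, the macrophage and neutrophil lysozyme, had 104, 166 and 138 FPKM in OC1 to OC3 and 177, 239, 166 and 245 FPKM in OT1 to OT4, with OT3 above OC2 by less than the rounding shows. Adgre1, which encodes the F4/80 antigen, had 7.46, 10.4 and 8.3 FPKM in OC1 to OC3 and 9.52, 14.5, 8.91 and 26.8 FPKM in OT1 to OT4, and OT4 held the highest value. Mertk, a receptor for the uptake of dying cells, was the steadiest member with -0.01 [-0.22 to 0.21]. OT2 and OT4 each exceeded every control for 10 of the 13 genes, OT1 for 7 and OT3 for 4.

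Among 12 genes of multinucleated macrophages, 11 were tested, 1 rose and 2 fell, beside 0.368% and 0.0832% of all tested genes. Acp5, the tartrate-resistant acid phosphatase (GRCm38, chr9:22126727-22135711, minus strand), had 6.23, 5.39 and 6.82 FPKM in OC1 to OC3 and 15.5, 15.4, 7.4 and 15.9 FPKM in OT1 to OT4. OT1, OT2 and OT4 were all over 15 FPKM, OT3 was just above the controls, and the log2 fold change was 1.07 ± 0.26 (SE). With OT3 left out Acp5 alone of all genes passed the adjusted threshold (adjusted p = 0.0467 by limma), and with OC2, OT1, OT2 or OT4 left out its log2 fold change was 0.98, 0.98, 0.99 and 0.97 and it was not called. Dcstamp, needed for the fusion of macrophages (GRCm38, chr15:39745930-39760938, plus strand), fell. It had 0.899, 1.05 and 0.968 FPKM in OC1 to OC3 and 0.0808, 0.443, 0 and 0.104 FPKM in OT1 to OT4, all low values, with no overlap and a log2 fold change of -2.34 ± 0.60 (SE) that is -0.78 with a pseudocount of 1. Il1rn, the antagonist of the interleukin-1 receptor, fell from 0.772, 1.24 and 1.12 FPKM in OC1 to OC3 to 0.48, 0.705, 0.203 and 0.184 in OT1 to OT4. Dcstamp and Il1rn had OT means of 0.157 and 0.393 FPKM and passed the filter only through the OC libraries, so their direction is not independent of it. Without 1 of the OC libraries Dcstamp was below the filter and not tested, and Il1rn was not called without OC2 or without OC3. Gpnmb and Ctsk, both rich in multinucleated cells, were not called (0.16 [-0.67 to 1.00] and -0.06 [-0.70 to 0.58]). Spp1, the secreted protein osteopontin, had 139.9, 155 and 91.4 FPKM in OC1 to OC3 and 8.7, 129, 91.4 and 86.2 FPKM in OT1 to OT4, low in OT1 alone, and was not called either. Lgals3, a lectin of phagocytes, had the narrowest interval of this list (0.16 [-0.17 to 0.48]).

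Antigen presentation genes differed by small amounts as well. Of 12 tested MHC class II and dendritic cell genes none was called, 9 had an interval within 2-fold, and the median log2 fold change was 0.35. H2-Eb1, a class II chain, had 45.9, 51.9 and 46 FPKM in OC1 to OC3 and 62.6, 87.3, 55 and 54.5 FPKM in OT1 to OT4, all OT libraries above all OC libraries. H2-Aa, another class II chain, had 91.2, 114 and 90.2 FPKM in OC1 to OC3 and 130.2, 172, 112 and 112 FPKM in OT1 to OT4 (log2 fold change 0.40 [0.04 to 0.76]), where OT3 and OT4 lay under OC2. Cd74, the invariant chain, had 106, 135 and 118 FPKM in OC1 to OC3 and 166, 226, 138 and 128 FPKM in OT1 to OT4 (log2 fold change 0.43 [0.00 to 0.85]). Flt3, a receptor of dendritic cell precursors, ranged from 0.459 to 0.769 FPKM. H2-DMb1, which loads peptides onto class II, had the narrowest interval (0.28 [-0.07 to 0.62]). The highest value of 9 of the 12 genes was in OT2.

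B and plasma cell genes were high in 1 mouse. Of 12 tested genes 11 had their highest value in OT2, and the summed level was 23.6 to 29.2 FPKM in the OC libraries, 139.7 FPKM in OT2, and 29.8, 18.6 and 34.8 FPKM in OT1, OT3 and OT4. Jchain, which joins IgA and IgM units, had 6.3, 12.8 and 8.34 FPKM in OC1 to OC3 and 13.6, 79.3, 7.26 and 14.9 FPKM in OT1 to OT4. Cd79a, the signalling chain of the B cell receptor, had 0.203, 0.415 and 0.488 FPKM in OC1 to OC3 and 0.291, 3.86, 0.618 and 0.426 FPKM in OT1 to OT4, and Mzb1, a chaperone of plasma cells, had 1.14, 1.15 and 2.17 FPKM in OC1 to OC3 and 1.08, 11.3, 0.911 and 2.03 FPKM in OT1 to OT4. For Cd79a and Mzb1 the other OT libraries lay close to the controls. Only Cd22, an inhibitory receptor of B cells, was called. It had 1.05, 0.744 and 0.805 FPKM in OC1 to OC3 and 1.9, 3.37, 1.26 and 1.9 FPKM in OT1 to OT4, a log2 fold change of 1.12 ± 0.33 (SE), and no overlap. The list's median was 0.79 with all libraries and 0.29 without OT2, when none of 8 tested genes was called. Members such as Cd79a passed the filter only through OT2, so their peak there is not independent of the filter. The medians with and without OT2 are therefore over different genes. The study had itself reported Jchain, Mzb1, Cd79b and Pou2af1 of this list as changed in these samples. The direction of these members is therefore not independent evidence. Derl3, a quality-control protein of the endoplasmic reticulum that plasma cells share with other secretory cells, had the narrowest interval of the list (-0.61 [-1.26 to 0.04]) and lower values in every OT library than in any OC library.

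T and NK cell genes were low and differed between mice. Of 17 genes 13 were tested, none was called, and 2 had an interval within 2-fold. Cd3e, a chain of the T cell receptor complex, was below 0.7 FPKM in every library and listed at 0 in OC3, and it was not tested. Lck, a kinase of T cells, had 1.42, 2.79 and 2.37 FPKM in OC1 to OC3 and 1.86, 3.9, 2.06 and 2.25 FPKM in OT1 to OT4, with overlap and the narrowest interval of the list (0.18 [-0.53 to 0.89]). Nkg7, a granule protein of cytotoxic cells, had 0.732, 4.55 and 3.39 FPKM in OC1 to OC3 and 1.36, 2.59, 8.07 and 2.23 FPKM in OT1 to OT4, and OT3 held the highest value. Among granulocyte and mast cell genes none of 9 tested was called. Cpa3, the mast cell carboxypeptidase, had 2.74, 6.02 and 4.22 FPKM in OC1 to OC3 and 3.59, 3.5, 4.2 and 3.44 FPKM in OT1 to OT4, and S100a8, a neutrophil protein, ranged from 0.41 to 2.15 FPKM. Csf3r, the receptor for granulocyte colony-stimulating factor, had 0.692, 0.662 and 0.823 FPKM in OC1 to OC3 and 1.1, 0.939, 0.986 and 1.61 FPKM in OT1 to OT4, with every OT library above every OC library (log2 fold change 0.58 [-0.05 to 1.22], not called). Hdc, the histamine-making enzyme, had the narrowest interval of this list (-0.20 [-0.66 to 0.25]).

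Of the 53 genes that rose 36 were in no list. The 10 with the largest log2 fold change were Calhm6 (2.81), Crygb (2.28), Gm20425 (2.12), Bcl2a1a (1.99), A530016L24Rik (1.93), Rnase2a (1.90), Pvrig (1.83), Tmem182 (1.73), Cdsn (1.69) and Npcd (1.68). Calhm6, a channel gene of activated myeloid cells (GRCm38, chr10:34126067-34127984, minus strand), had 0.203, 0 and 0.192 FPKM in OC1 to OC3 and 1.53, 1.54, 0.969 and 1.47 FPKM in OT1 to OT4, with no overlap. Bcl2a1a has near-identical copies among which fragments can be split, so its level is uncertain. All of these 10 genes but Gm20425 and A530016L24Rik had an OC mean under the filter of 0.5 FPKM. They passed it only through the OT libraries, so their direction is not independent of the filter. A530016L24Rik had been reported by the study as changed in these samples, so its direction is not independent evidence either. Among the other genes that rose, Sucnr1, Lpar5, Dmrt2 and Cuzd1 had OC means under the filter as well, at 0.233, 0.237, 0.224 and 0.154 FPKM. Of the 53 genes 28 had a mean under 2 FPKM, OT1 or OT2 held the highest OT value for 44, and OT3 the lowest OT value for 36.

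Several inflammatory signalling genes were among the called genes outside the lists and were picked out after their values had been seen. Ccl2, the chemokine that draws monocytes, had 1.93, 1.7 and 0.991 FPKM in OC1 to OC3 and 3.63, 3.01, 4.1 and 4.27 FPKM in OT1 to OT4, with no overlap and a log2 fold change of 1.27 ± 0.25 (SE). Socs3, the feedback inhibitor of cytokine signalling, had 7.82, 9.41 and 11 FPKM in OC1 to OC3 and 22.7, 20.3, 13.4 and 21.1 FPKM in OT1 to OT4, with OT3 nearest to the controls and a log2 fold change of 1.02 ± 0.19 (SE). Tnf and Il1b, the cytokines TNF and interleukin-1 beta, were low, with 0.0931, 0.566 and 0.178 in the OC libraries and 0.983, 0.872, 0.753 and 0.575 in the OT libraries for Tnf and 0.485, 0.287 and 0.181 in the OC libraries and 0.734, 0.736, 0.696 and 2.78 in the OT libraries for Il1b in FPKM. Neither overlapped between groups, and OT4 alone was over 1 FPKM for Il1b. Their OC means of 0.279 and 0.318 FPKM were under the filter, which both passed only through the OT libraries. Retnla, a product of alternatively activated macrophages, had 2.86, 4.01 and 6.96 FPKM in OC1 to OC3 and 16.8, 8.4, 9.92 and 7.85 FPKM in OT1 to OT4. Cdo1 and Abcd2, a cysteine dioxygenase and a peroxisomal transporter that are abundant in fat, followed the pattern of the adipocyte genes, with 10.7, 14.2 and 14.3 in the OC libraries and 88.9, 59.8, 10.9 and 26.1 in the OT libraries for Cdo1 and 3.09, 3.27 and 3.62 in the OC libraries and 13, 8.24, 3.83 and 5.15 in the OT libraries for Abcd2 in FPKM. The study had itself reported Ccl2, Retnla, Cdo1 and Abcd2 as changed in these samples, so their direction is not independent evidence.

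**Figure D3:**
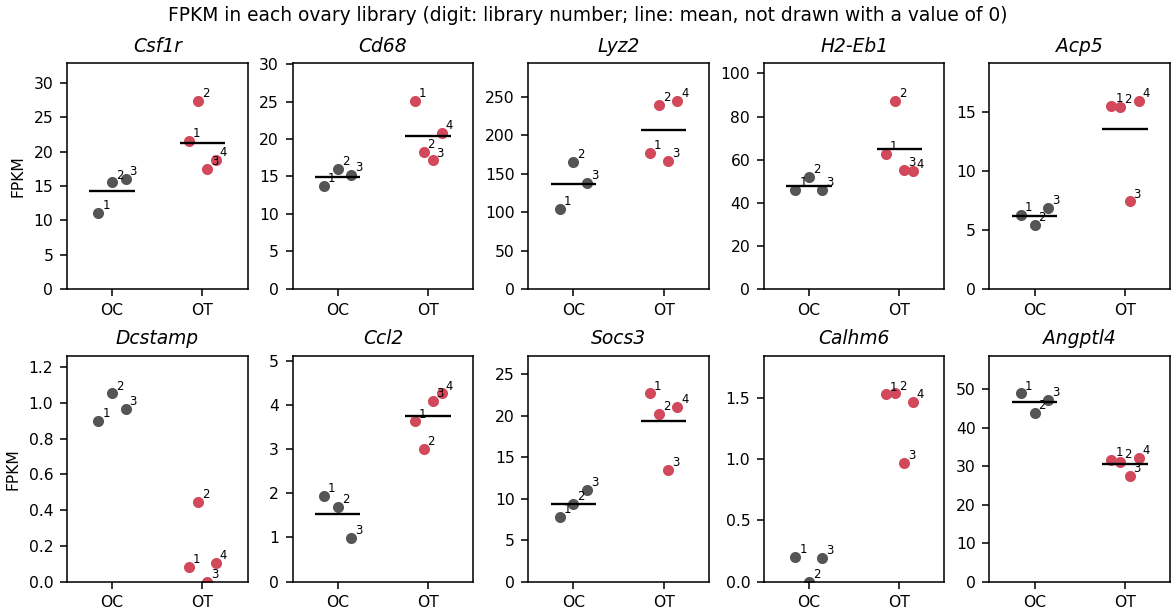
FPKM on the y axis from 0 in each library (grey, OC; red, OT; the digit is the library number), with a line at the group mean except for the 2 genes with a value of 0. Dcstamp and Angptl4 lie lower in all 4 OT libraries than in all 3 OC libraries, and the other 8 genes lie higher. Among those 8, OT3 is the OT library nearest to the controls for Csf1r, Cd68, Lyz2, Acp5, Socs3 and Calhm6.

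All 12 genes that fell had a mean under 2 FPKM. Besides Dcstamp and Il1rn they were Scgb3a1 (-2.82), Oosp2 (-2.66), Gm49027 (-2.65), Gm525 (-1.83), Miox (-1.48), Fer1l4 (-1.42), Gm10260 (-1.19), Pax2 (-1.09), Cd226 (-1.05) and Mia (-1.02), with log2 fold changes in brackets. Dcstamp, Il1rn, Scgb3a1, Oosp2 and Gm525 had OT means of 0.157, 0.393, 0.27, 0.149 and 0.271 FPKM. These means are under the filter of 0.5 FPKM, which the genes passed only through the OC libraries, so their direction is not independent of the filter. Oosp2, an oocyte-secreted protein, had 1.56, 0.985 and 0.499 FPKM in OC1 to OC3 and 0, 0, 0.595 and 0 FPKM in OT1 to OT4, listed at 0 in 3 of the 4 OT libraries and in OT3 inside the OC range. Scgb3a1, a secretoglobin of epithelia, had 0.502, 2.26 and 3.86 FPKM in OC1 to OC3 and 0.48, 0, 0.6 and 0 FPKM in OT1 to OT4, with OT3 just above OC1. Pax2, a transcription factor of oviduct and kidney epithelium, had 0.907, 2.01 and 0.769 FPKM in OC1 to OC3 and 0.268, 0.34, 0.792 and 0.662 FPKM in OT1 to OT4. None of the 12 was still called with a minimum mean of 5 FPKM, since none was tested there.

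No gene of the oocyte list was called. Of its 29 genes 24 were tested, none rose or fell, and no gene separated the groups, against 2.78% and 3.13% of all tested genes. The median log2 fold change was -0.13, and 21 of the 24 fold changes were below 0. Only 13 of the 24 (54.2%) had an interval within 2-fold against 87.9% of all tested genes, beside a median SD within groups of 0.50 on the log2 scale against 0.17. These values depended on single libraries. The count within 2-fold was 8 of 25 without OC2 or without OC3 and 20 of 25 without OT2, and the median was -0.43 without OC2 and -0.30 without OT3, but 0.01 without OC1 and -0.01 without OT2.

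Zp3 encodes a coat protein of the egg (GRCm38, chr5:135980099-135988624, plus strand). Its 250 bases before the start are shown as an example of the list, with the E-box CACCTG (here on the other strand as CAGGTG) in capitals. E-boxes are bound by factors such as Figla, a regulator of the egg coat genes. They have other forms as well, such as cacgtg, which lies further upstream in this window and is left in lower case. Which of them a factor binds was not tested. The sequence is from RefSeq (GRCm38.p6, chr5:135979855-135980104, plus strand), 5′ to 3′.
Zp3: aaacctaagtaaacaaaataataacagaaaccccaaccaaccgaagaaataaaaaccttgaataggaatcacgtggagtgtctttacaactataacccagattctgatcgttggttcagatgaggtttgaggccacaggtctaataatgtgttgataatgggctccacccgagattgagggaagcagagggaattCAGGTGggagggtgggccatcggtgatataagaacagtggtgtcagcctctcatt
The match starts 55 bases before the RefSeq start site. On either strand CACCTG was present in the same window of 11 of the 20 oocyte genes with a promoter entry and in 17.2% of all 32851 promoters. The first count is of genes with a match in any of their promoter entries, while the percentage is over promoter entries. The values are therefore not like measures. These letters were chosen after the promoters had been seen, and the counts are a description.

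Zp3 had 7.98, 4.36 and 5.5 FPKM in OC1 to OC3 and 4.71, 3.04, 6.92 and 7.18 FPKM in OT1 to OT4, with the lowest value in OT2 and the next in OC2. Gdf9, a growth factor that oocytes send to granulosa cells, had 9.67, 6.69 and 9.44 FPKM in OC1 to OC3 and 7.52, 6.19, 10.3 and 7.65 FPKM in OT1 to OT4 (log2 fold change -0.12 [-0.56 to 0.32]). Bmp15, its partner, had 4.96, 3.92 and 5.49 FPKM in OC1 to OC3 and 3.99, 1.87, 4.25 and 4.32 FPKM in OT1 to OT4 (log2 fold change -0.46 [-1.13 to 0.21]), and Oosp1 had 4.38, 1.53 and 3.02 FPKM in OC1 to OC3 and 2.21, 2.14, 3.55 and 2.27 FPKM in OT1 to OT4. The lowest value was in OT2 for 18 of the 24 genes and in OC2 for 5, and the highest was in OC1 for 11 and in OT3 for 6. Tle6, a protein of the subcortical maternal complex, was the steadiest with a log2 fold change of -0.03 [-0.39 to 0.33]. Figla, Lhx8, Sohlh1, Ddx4 and Pabpc1l were below the filter, and Oosp2, given above among the genes that fell, was not a member.

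Granulosa genes also differed between mice. Of 24 genes all were tested, none was called, 14 had an interval within 2-fold and the median log2 fold change was -0.09, or -0.30 without OC2 and 0.11 without OC3 or without OT2. The lowest value was in OT2 for 11 and in OC2 for 9, and the highest was in OC3 for 10 and in OT1 for 10. Inha, a subunit of the hormone inhibin (GRCm38, chr1:75507077-75510366, plus strand), had 616, 258 and 643 FPKM in OC1 to OC3 and 614, 232, 421 and 410.1 FPKM in OT1 to OT4 (log2 fold change -0.24 [-1.12 to 0.64]). Cyp19a1, the aromatase that makes estradiol, had 11.6, 2.55 and 14.7 FPKM in OC1 to OC3 and 11.7, 1.72, 8.7 and 7.94 FPKM in OT1 to OT4, and Inhba, which encodes the activin subunit, had 60.5, 9.22 and 73.8 FPKM in OC1 to OC3 and 48.1, 8.17, 35.1 and 42.1 FPKM in OT1 to OT4. The low libraries were OC2 and OT2 for each of these genes, 1 from each group. Fshr, the receptor for follicle-stimulating hormone, had 2.99, 2.08 and 3.4 FPKM in OC1 to OC3 and 4.3, 1.26, 2.21 and 2.73 FPKM in OT1 to OT4, with the highest value in OT1.

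Amh, the hormone of small growing follicles, had 19.2, 9.98 and 18.4 FPKM in OC1 to OC3 and 25.3, 17.4, 14.8 and 20.9 FPKM in OT1 to OT4 (log2 fold change 0.34 [-0.24 to 0.91]), so that OC2 was the lowest and OT2 and OT3 lay below OC1 and OC3. Foxl2, the transcription factor that maintains granulosa identity, had 15.6, 15.2 and 22.6 FPKM in OC1 to OC3 and 29.3, 18.4, 21.5 and 14.7 FPKM in OT1 to OT4 (log2 fold change 0.21 [-0.31 to 0.74]). Wt1 and Kitl, a transcription factor and a ligand for the oocyte, held within a narrow range, with 0.03 [-0.14 to 0.20] and -0.02 [-0.24 to 0.20]. Nr0b1 was the only member whose groups did not overlap, with 1.1, 1.04 and 0.78 FPKM in OC1 to OC3 and 3.05, 1.2, 1.1 and 1.28 FPKM in OT1 to OT4, where OT3 exceeded OC1 by less than the rounding shows, and it was not called. With OC2 and OT2 both left out 19 of the 24 granulosa genes and 17 of 25 oocyte genes had an interval within 2-fold, and none was called.

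Theca genes were split between steady and variable members. Cyp17a1, the enzyme that makes androgens, had 42.1, 9.18 and 23.6 FPKM in OC1 to OC3 and 112, 1.62, 10.9 and 17.6 FPKM in OT1 to OT4, the widest spread of the defining markers, with the highest and the lowest value both in the OT group. Insl3, a peptide hormone of theca cells, had 3.46, 4.67 and 1.32 FPKM in OC1 to OC3 and 1.6, 0.335, 2.74 and 2.29 FPKM in OT1 to OT4, lowest in OT2 (log2 fold change -0.95 [-2.48 to 0.58]). Ptch1, the hedgehog receptor that theca cells use to sense granulosa signals, had 18.7, 19.3 and 17.1 FPKM in OC1 to OC3 and 21, 15.6, 17.2 and 17.9 FPKM in OT1 to OT4 (log2 fold change -0.04 [-0.28 to 0.20]). None of the 8 genes was called and 5 had an interval within 2-fold.

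No luteal gene was called. Of 16 tested genes no member separated the groups, 14 had an interval within 2-fold (87.5% beside 87.9% of all tested genes) and the median log2 fold change was -0.04. Lhcgr, the receptor for luteinizing hormone, had 76, 76.7 and 78.1 FPKM in OC1 to OC3 and 84.6, 87.9, 81.6 and 62.2 FPKM in OT1 to OT4 (log2 fold change 0.03 [-0.23 to 0.29]). Cyp11a1, which cuts the cholesterol side chain in the first step of steroid synthesis, had 3094, 2456 and 2823 FPKM in OC1 to OC3 and 2767, 3148, 2672 and 2521 FPKM in OT1 to OT4 (log2 fold change -0.01 [-0.33 to 0.32]), and Hsd3b1, which makes progesterone, had -0.00 [-0.28 to 0.28]. Star, which brings cholesterol into mitochondria, had 721, 709 and 604 FPKM in OC1 to OC3 and 399, 756, 626 and 503 FPKM in OT1 to OT4, lower in OT1 and OT4 (log2 fold change -0.28 [-0.74 to 0.17]). Ptgfr, the receptor through which prostaglandin F2 alpha starts luteal regression, had 173, 136 and 168 FPKM in OC1 to OC3 and 177, 144, 145 and 132 FPKM in OT1 to OT4 (log2 fold change -0.09 [-0.36 to 0.18]). Fdxr had the narrowest interval of the list (-0.01 [-0.22 to 0.19]).

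Akr1c18, the enzyme that breaks progesterone down in regressing corpora lutea, was 1 of the 2 members with an interval wider than 2-fold. It had 144, 34.9 and 40.0 FPKM in OC1 to OC3 and 19.8, 51.8, 25.9 and 30.2 FPKM in OT1 to OT4 and a log2 fold change of -0.97 [-2.10 to 0.16], and it was not called with all libraries but was called lower without OC2 and without OT2. OC1 was far above the other 6 libraries, which lay between 19.8 and 51.8 FPKM.

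**Figure D4:**
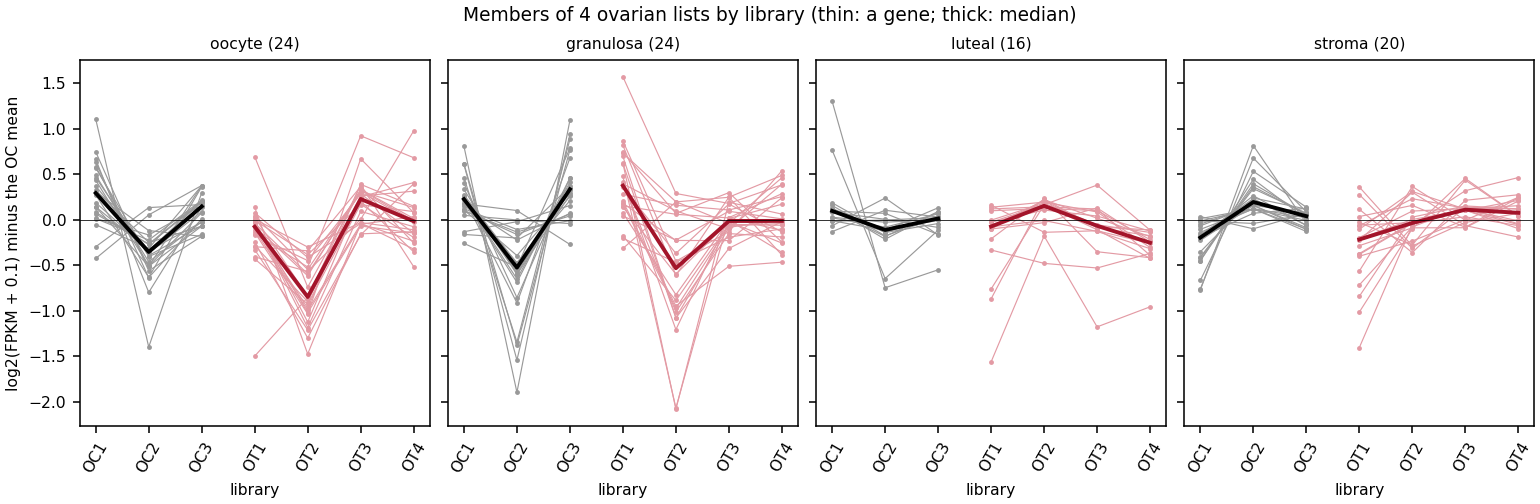
Thin lines join the values of 1 gene over the libraries, on log2(FPKM + 0.1) minus the OC mean, and thick lines the median in each library (grey and black, OC; red, OT). Oocyte and granulosa medians dip in OC2 (-0.35 and -0.53) and in OT2 (-0.85 and -0.53), while luteal and stromal medians stay between -0.25 and 0.19.

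Stromal genes held within 2-fold in 19 of 20 cases (95.0% beside 87.9% of all tested genes), none was called and the median log2 fold change was -0.02. Pdgfra, a receptor for platelet-derived growth factor on fibroblasts, had 71.1, 83.1 and 70.2 FPKM in OC1 to OC3 and 71.5, 72.9, 80.0 and 86.4 FPKM in OT1 to OT4 (log2 fold change 0.05 [-0.15 to 0.26]). Dcn, a small matrix proteoglycan, had 289, 497 and 402 FPKM in OC1 to OC3 and 396, 431, 365 and 456 FPKM in OT1 to OT4, and Lum, a related proteoglycan, had 104, 143 and 114 FPKM in OC1 to OC3 and 97.9, 112, 112 and 138 FPKM in OT1 to OT4. Tcf21, a transcription factor of stromal progenitors, had 26.4, 25.9 and 27.8 FPKM in OC1 to OC3 and 32.4, 21.4, 29.2 and 28.9 FPKM in OT1 to OT4 (log2 fold change 0.05 [-0.24 to 0.35]), and Fbn1, a fibrillin of the matrix, had the narrowest interval (-0.05 [-0.26 to 0.15]). Fibrillar collagens differed between mice of a group more than between groups: Col1a1 had 163, 374 and 285 FPKM in OC1 to OC3 and 128, 242, 354 and 266 FPKM in OT1 to OT4, with the lowest value in OT1 and the highest in OC2. Postn, a matrix protein, was the 1 member outside 2-fold (-0.17 [-1.28 to 0.94]).

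All 12 endothelial genes had intervals within 2-fold, with a median log2 fold change of -0.01. Pecam1, a junction protein of vessels, had 34.3, 36.7 and 32.4 FPKM in OC1 to OC3 and 32.5, 33.5, 34.9 and 29.9 FPKM in OT1 to OT4, and Kdr, the main receptor for VEGF, had -0.01 [-0.18 to 0.16], with Cdh5 at -0.12 [-0.38 to 0.15]. Of 10 mural and smooth muscle genes none was called and 6 held within 2-fold. Acta2, the smooth muscle actin, had 408, 795 and 535 FPKM in OC1 to OC3 and 327, 541, 664 and 639 FPKM in OT1 to OT4, with OC2 high and OT1 low, Myh11 had -0.14 [-0.87 to 0.59] and Rgs5 -0.06 [-0.50 to 0.38].

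Among the tissues that can come along with the ovary, all 7 tested oviduct genes and 9 of 10 surface epithelium genes held within 2-fold. Ovgp1, the oviduct glycoprotein, had 863, 852 and 568 FPKM in OC1 to OC3 and 424, 725, 569.6 and 942 FPKM in OT1 to OT4, and Foxj1 and Pax8, of ciliated and secretory oviduct cells, had log2 fold changes of -0.03 and -0.29. Upk1b, Upk3b and Msln, of the surface epithelium, had log2 fold changes of 0.46 [0.08 to 0.85], 0.41 [0.01 to 0.82] and 0.35 [-0.12 to 0.82]. Msln was 9.12, 10.1 and 10.0 in the OC libraries and 10.7, 19.3, 11.3 and 10.4 in the OT libraries in FPKM, and the groups did not overlap. None of these genes was called.

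Genes of ovulation, muscle, blood and the immediate early response had no call but wide intervals. Of 11 tested periovulatory genes 2 held within 2-fold, and their median log2 fold change was -0.37. Ptgs2, the inducible prostaglandin synthase, had 2.73, 1.06 and 1.29 FPKM in OC1 to OC3 and 0.631, 1.1, 2.33 and 1.01 FPKM in OT1 to OT4, and Pgr, the progesterone receptor, had 8.7, 17.5 and 16.3 FPKM in OC1 to OC3 and 10.3, 4.83, 16.6 and 15 FPKM in OT1 to OT4. Areg and Has2, an EGF-like ligand and the hyaluronan synthase of cumulus expansion, had log2 fold changes of -0.44 [-1.95 to 1.06] and -0.58 [-1.91 to 0.76]. Adamts1, a protease needed for ovulation, had 58.4, 80.3 and 59.1 FPKM in OC1 to OC3 and 19.9, 49.6, 53.9 and 49.6 FPKM in OT1 to OT4, all OT libraries below all OC libraries (log2 fold change -0.69 [-1.44 to 0.05], not called).

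Skeletal muscle genes were low, with summed levels of 8.31 to 28.1 FPKM in the OC and 10.5 to 19.4 FPKM in the OT libraries, and Acta1 and Mylpf had log2 fold changes of -0.03 and -0.85, while Ckm was below the filter. Red blood cell genes were highest in OT3. The blood cell list summed to 176 to 242 FPKM in the OC libraries, 695 in OT3 and 195 to 281 in the other OT libraries, with log2 fold changes of 0.62 for Hba-a1, 0.59 for its near-identical copy Hba-a2 and 0.37 for Alas2. Fos, Egr1 and Junb, which switch on within minutes of a stimulus, were highest in OT1: Fos had 6.14, 2.59 and 2.44 FPKM in OC1 to OC3 and 45.7, 5.14, 5 and 4.38 FPKM in OT1 to OT4, Egr1 had 10.8, 8.75 and 7.88 FPKM in OC1 to OC3 and 36.1, 12.7, 11.1 and 10.5 FPKM in OT1 to OT4 and Junb had 22.6, 25.4 and 21.8 FPKM in OC1 to OC3 and 44.6, 31.2, 22.9 and 23.8 FPKM in OT1 to OT4. All 11 immediate early genes had a log2 fold change above 0, from 0.1 to 2.05, with a median of 0.53. None was called, and 4 had an interval within 2-fold. The highest value was in OT1 for 8 of the 11, and without OT1 the median was 0.26 over 10 tested genes. OT1 was also the library with the highest adipocyte genes. What part these genes have in the differences above was not tested.

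**Figure D5:**
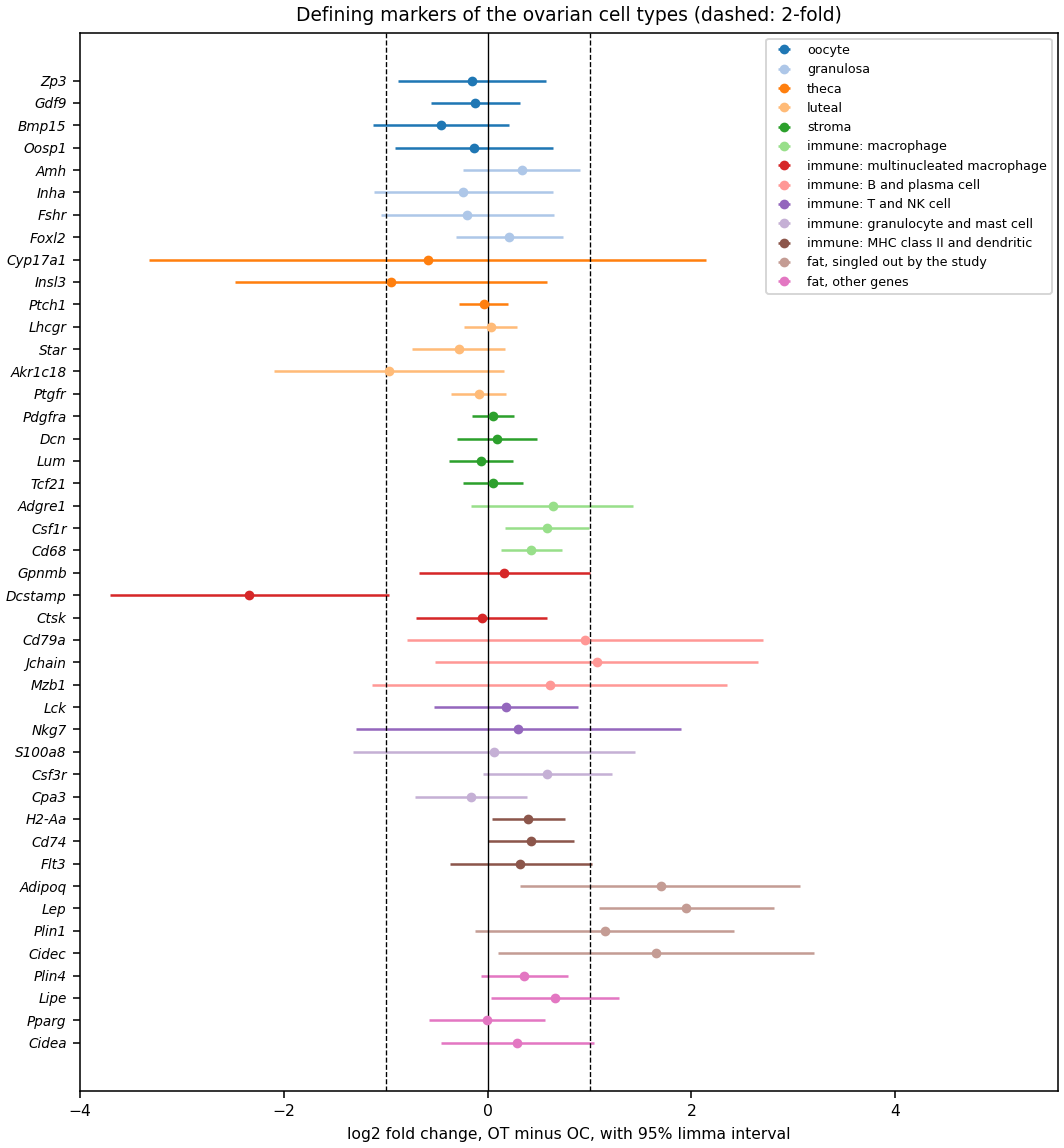
Points are log2 fold changes of OT minus OC for the tested defining markers of 13 lists, bars their 95% limma intervals, and dashed lines mark a 2-fold change. Stromal markers lie wholly inside the dashed lines, the markers Adipoq, Lep and Cidec lie to the right of 0, Dcstamp lies to the left, and Cyp17a1 has the widest bar (-3.32 to 2.14).

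The lists differed in how much mice of a group varied. The median SD within groups, on the log2 scale, was 0.14 for endothelium, 0.17 for luteal, 0.23 for stroma, 0.45 for granulosa, 0.50 for oocyte, 0.96 for the singled-out fat genes and 1.04 for B and plasma cells, beside 0.17 for all tested genes. Of 68 tested defining markers 7 reached the smallest exact permutation p of 0.0571. They were Lep, Lipe, Csf1r, Cd68, Csf3r, Dcstamp and Msln, with Dcstamp lower and the other 6 higher in every OT library, beside 3.13% of all tested genes lower and 2.78% higher in every OT library. Lep came from the list that the study chose on these same libraries, and Dcstamp passed the filter only through the OC libraries. The direction of Lep and Dcstamp is therefore not independent evidence.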

How the data were processed

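Ovary RNA-seq values of 3 OC and 4 OT mice were used, with groups and replicate numbers from the labels. The file deposited by the authors held FPKM for each gene and library. Per the labels, the tools were STAR 2.5 for mapping and Cufflinks 2.2.1 for quantification on mm10, and no further scaling was applied. All 21853 identifiers matched GENCODE mouse release M21, which gave symbols and positions. The filter kept genes averaging 0.5 FPKM or more over the 7 ovary libraries. These were fitted on log2(FPKM + 0.1) with limma 3.58.1 in R 4.3.3 (lmFit, eBayes with a trend), with no covariate, and fold changes on this scale understate the change of low genes. Cuffdiff, the study's tool, needs reads and was not run. Exact two-sided permutation p-values over the 7 libraries are 2 times the smaller tail. Replicates are libraries of different mice. Before use, limma was tested on simulated data with known changes. Other steps used Python 3.11.15 with pandas 2.3.3, and matplotlib 3.10.9 drew the figures.

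The genes, lists and alternatives were chosen with earlier results of these data known. Named genes were the defining markers, every called list member, in each direction the 10 called genes in no list with the largest change, and the member with the narrowest interval of each main list, plus genes stated as picked after their values were seen and further list members given as examples. Alternatives were pseudocounts of 1 and 0.01, no filter, a minimum mean of 5 FPKM, upper-quartile scaling, robust eBayes, the replicate block and leaving out each library. Leaving out OT1 with OT2, and OC2 with OT2, was added after seeing the data.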

Additional observations from a re-analysis of the deposited data

Results flagged for a closer look

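The 4 OT libraries of each named value were searched for a library far from the other 3, by the gap to its neighbour over the range of the group, and chance marks about 1 in 20 such groups. Of 125 values examined 13 had such a library. OT1 held the highest Fos (45.7 FPKM) and Egr1 (36.1 FPKM) and the lowest Myh11 (99.2 FPKM) and Fer1l4 (0.189 FPKM). OT2 held the lowest Bmp15 (1.87 FPKM) and the highest Msln (19.3 FPKM). OT3 held the highest Oosp1 (3.55 FPKM) and Oosp2 (0.595 FPKM) and the lowest Foxj1 (11.9 FPKM), Acp5 (7.40 FPKM) and Calhm6 (0.969 FPKM). OT4 held the highest Il1b (2.78 FPKM) and the lowest Gm525, listed at 0 FPKM.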

How the results depend on the processing

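The count of 53 genes that rose was 99 with no filter, 17 with a minimum of 5 FPKM, 16 with a pseudocount of 1, 26 without OT1 and OT2, and 36 to 104 when 1 library was left out, the most without OT3. The count of 12 that fell was 60 with no filter, 0 with the minimum of 5 FPKM, 2 with a pseudocount of 1, 22 without OT1 and OT2, and 10 to 33 when 1 library was left out (24 without OC1, 33 without OT3, 19 without OT4). With the replicate block, which leaves out OT4, 69 rose and 34 fell. Same-numbered libraries deviated from their group means with correlations of 0.331 (OC1 with OT1), 0.045 (OC2 with OT2) and 0.08 (OC3 with OT3). OC1 and OC3 correlated best with their own number, while OC2 correlated best with OT3 (0.253). So few libraries cannot decide whether the numbers mark a shared batch. Of the list medians, T and NK cells went from 0.14 to between -0.45 and 0.41 when 1 library was left out, and had no value at 5 FPKM. Granulocytes and mast cells went from 0.06 to between -0.15 and 0.11, and to -0.20 at 5 FPKM. Oocyte genes went from -0.13 to between -0.43 and 0.01, granulosa from -0.09 to between -0.30 and 0.11, theca from -0.05 to between -0.11 and 0.08, luteal from -0.04 to between -0.08 and 0.01, and stroma from -0.02 to between -0.14 and 0.09. Multinucleated macrophages went from 0.16 to between 0.02 and 0.26, the other fat genes from 0.36 to between 0.17 and 0.48, and B and plasma cells from 0.79 to between 0.29 and 1.13. Multinucleated macrophages also had 0.47 without OC2 and OT2, and the other fat genes 0.03 without OT1 and OT2. The cause was not tested. Of 712 values of the 48 named called genes under 16 alternatives, 521 kept their call, 191 kept the direction only and none changed direction. Of the uncalled defining markers, Akr1c18, Jchain, Plin1, Has2, Mylpf, Hba-a2 and Fos were called under at least 1 alternative. Depth is unknown, so for genes under 2 FPKM counting error and spread between mice cannot be told apart.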
